A study of Mus musculus with 4 samples.

Results

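Pi16, Dpp4, Cd55, Sema3c, Anxa3, Wnt2, Dact2, Ly6c1 and Smpd3 are genes used to mark early progenitors among the stromal cells of adipose tissue (AT). These 9 genes, of 32290 features in the count tables, were taken by symbol and followed in stromal cells. A stromal cell was a barcode with at least 3 UMIs (unique molecular identifiers, the counted transcripts) of Dcn, the gene of a fibroblast matrix proteoglycan, and none of Ptprc, the gene of the pan-leukocyte antigen CD45. Of 4113 cells kept after filtering, 798 met this rule. In both genotypes, each of the 9 genes was higher in stromal cells of subcutaneous than of intraperitoneal AT, and in subcutaneous AT most stromal cells with at least 4000 UMIs carried at least 5 of them when thinned to that depth.

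Adipose stroma contains fibroblast-like cells at different stages of commitment. Early progenitors lie in the connective tissue around and between the fat lobules, proliferate, and can give rise to committed preadipocytes, which sit nearer to vessels and adipocytes and express genes of lipid uptake and storage. The early cells are usually recognised by the surface peptidase DPP4 and the secreted protein PI16, and are known for a gene programme of matrix fibres and WNT-responsive signalling. A separate stromal population marked by CD142, the product of F3, is also described in AT.

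The study asked whether cells other than endothelial cells (EC) differ in AT when Tert, the telomerase catalytic subunit gene, is deleted in EC. Single-cell libraries came from subcutaneous (SC) and intraperitoneal (IP, visceral) AT of male mice aged 7 months after 5 months of high-fat diet, with 1 library for each of WT SC, KO SC, WT IP and KO IP. All mice carried Tie2e-cre, a Cre recombinase under an EC-directed Tie2 promoter element, and mTmG, a reporter that changes from membrane Tomato to membrane GFP where Cre has acted. WT mice had TERT+/+ alleles and KO mice had TERTfl/fl alleles, so Cre and the reporter were common to both and the stromal cells of KO mice were not the intended target of the deletion. The labels describe mixed primary cells, speak of cells in one place and nuclei in another, and do not give the number of mice behind a library. With 1 library per group there was no test, and the variation from mouse to mouse was not measured. Intervals are 95% and cover counting error only: exact Poisson intervals for levels, exact conditional binomial intervals for ratios and Clopper-Pearson intervals for shares.

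The stromal cells numbered 95 in WT and 192 in KO for SC, and 274 in WT and 237 in KO for IP, which was 9.81%, 9.82%, 40.8% and 45.8% of the kept cells. Together they held 1744313, 1678716, 6115661 and 5930088 UMIs, with a median per cell of 20229, 5662.5, 23259 and 23332 in the same order. KO SC and WT IP shared 93 barcodes, where other pairs of libraries shared 0 or 1. In all 93 the WT IP copy was the deeper, with a median of 35392 UMIs against 601 in KO SC. The stromal share of 9.82% in KO SC counts its shared barcodes and was not computed without them. Among stromal cells, 69 of 192 in KO SC and 76 of 274 in WT IP had such a barcode, holding 2.58% of the stromal UMIs of KO SC and 46.0% of those of WT IP. Without them the median depth of KO SC was 14240 UMIs over 123 cells and that of WT IP 19145 over 198 cells. Some ratios and own-depth shares that rest on these cells are also given without them. The shares of thinned WT IP cells, the ratios with cells weighted equally and the UMIs held by the richest cells are given with them only.

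All 8 genes of a stromal marker list (Dcn, Col1a1, Col1a2, Col3a1, Pdgfra, Lum, Gsn and Serpinf1) had UMIs in every library, and their summed level was 38736 to 47222 CPM, UMIs of a gene per 1000000 stromal UMIs. Dcn itself was at 9256, 12489, 11604 and 12344 CPM in WT SC, KO SC, WT IP and KO IP. The 6 lymphocyte markers summed to between 1.64 and 8.34 CPM. Endothelial markers summed to 112 to 204 CPM, of which Tek, the gene of Tie2, was 65.6 to 184 CPM. The 6 mesothelial markers, genes of the lining of the body cavity, summed to 20.1 CPM in WT and 16.1 in KO for SC, and 69.2 in WT and 895 in KO for IP, and all 6 had UMIs in both IP libraries. These UMIs came mostly from 31 cells of KO IP and 3 of WT IP with at least 3 mesothelial UMIs each. Haemoglobin genes summed to 6780 CPM in WT SC and to 34.6, 317 and 61.6 CPM in KO SC, WT IP and KO IP, and the part of this difference in the results below was not tested. Tert had 0 stromal UMIs in both SC libraries, 8 in WT IP and 9 in KO IP, too few to show a difference.

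Pi16 encodes peptidase inhibitor 16, a secreted protein (ENSMUSG00000024011, GRCm38 chromosome 17, 29317680 to 29330593, plus strand). Its level was 2418 CPM (2345 to 2492) in WT and 2044 (1977 to 2114) in KO for SC, and 239 (227 to 251) in WT and 336 (321 to 351) in KO for IP. Thus it was 10.1-fold lower in IP than in SC in WT and 6.09-fold lower in KO, on log2 scales a difference of -3.34 (-3.43 to -3.25) and -2.61 (-2.69 to -2.53). Against WT, KO was slightly lower in SC, with a log2 ratio of -0.24 (-0.31 to -0.18), and higher in IP, with 0.49 (0.39 to 0.59). The UMIs were concentrated in IP, where the 10% of cells with the most Pi16 held 68.6% of its UMIs in WT and 56.6% in KO, compared with 38.4% and 48.5% in SC.

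Dpp4, Cd55 and Ly6c1 encode proteins of the cell surface. DPP4 (CD26) is a peptidase that trims short peptides from hormones and chemokines (ENSMUSG00000035000, chromosome 2, 62330073 to 62412231, minus strand). CD55, decay-accelerating factor, protects cells from complement (ENSMUSG00000026399, chromosome 1, 130439027 to 130462744, minus strand). LY6C1 is a small lipid-anchored protein of the Ly6 family (ENSMUSG00000079018, chromosome 15, 75044018 to 75048830, minus strand). Since these are the members that antibodies can reach and their depot differences were far apart in size, the 250 bases before their annotated starts are shown from RefSeq for GRCm38.p6, read 5' to 3' on the gene's strand. The windows are chr2:62412232-62412481 for Dpp4, chr1:130462745-130462994 for Cd55 and chr15:75048838-75049087 for Ly6c1, all minus strand and all outside the gene. Capitals mark matches, on either strand, to a TATA box (as TATAAA), to a CCAAT box, to the core CTTTGA of TCF/LEF factors, which act in WNT signalling, to the TEAD core GGAATG or to a GC box (as GGGCGG).
Dpp4: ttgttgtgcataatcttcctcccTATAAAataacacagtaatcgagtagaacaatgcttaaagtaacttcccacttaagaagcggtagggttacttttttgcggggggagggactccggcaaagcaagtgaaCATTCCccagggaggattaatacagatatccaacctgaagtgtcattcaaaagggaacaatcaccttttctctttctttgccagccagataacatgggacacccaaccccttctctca
Cd55: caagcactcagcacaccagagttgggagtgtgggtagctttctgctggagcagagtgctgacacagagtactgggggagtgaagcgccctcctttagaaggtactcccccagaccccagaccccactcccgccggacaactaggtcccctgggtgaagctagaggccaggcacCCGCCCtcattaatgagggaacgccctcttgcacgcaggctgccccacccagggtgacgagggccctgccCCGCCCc
Ly6c1: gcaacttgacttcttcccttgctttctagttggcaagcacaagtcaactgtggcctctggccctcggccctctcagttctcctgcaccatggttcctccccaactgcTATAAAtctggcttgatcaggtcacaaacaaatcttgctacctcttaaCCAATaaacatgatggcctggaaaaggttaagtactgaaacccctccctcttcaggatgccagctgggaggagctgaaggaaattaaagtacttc

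The Dpp4 window held TATAAA at 227 bases before the start and GGAATG on the other strand at 118, and that of Cd55 held GGGCGG on the other strand at 77 and 7. In the Ly6c1 window shown TATAAA stood at 143 bases and CCAAT at 95. RefSeq gives Ly6c1 a second start, whose window (chr15:75048664-75048913, minus strand) overlaps the gene and held none of the 5 motifs. The GC content was 43.6% for Dpp4, 64% for Cd55 and 48.4% for Ly6c1, beside a median of 52% over 27025 promoters. RefSeq windows were matched for 7 of the 9 members, not for Anxa3 and Smpd3. Of these 7, with Ly6c1 counted by the window shown, GGGCGG was in 4, CCAAT in 3, TATAAA in 2, GGAATG in 1 and CTTTGA in 0. Over all 27025 windows the shares were 32.94% for GGGCGG, 34.46% for CCAAT, 12.97% for TATAAA, 12.63% for GGAATG and 14.05% for CTTTGA. No motif was shared by all 7, and a match is only a run of letters.

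Dpp4 stood at 442 CPM (411 to 474) in WT and 376 (347 to 406) in KO for SC, and 78.0 (71.2 to 85.3) in WT and 113 (105 to 122) in KO for IP. Like Pi16, it was lower in IP than in SC, by 5.67-fold in WT and 3.33-fold in KO, and KO was below WT in SC (log2 ratio -0.23, -0.39 to -0.08) and above it in IP (0.53, 0.36 to 0.71). Cd55 measured 756 CPM (715 to 798) in WT and 584 (548 to 622) in KO for SC, and 293 (280 to 307) in WT and 382 (366 to 398) in KO for IP. Its order over the 4 libraries was the same, with smaller depot differences of 2.58-fold in WT and 1.53-fold in KO, and log2 ratios of KO to WT of -0.37 (-0.49 to -0.25) in SC and 0.38 (0.29 to 0.47) in IP.

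Ly6c1 gave 793 CPM (752 to 836) in WT and 860 (816 to 905) in KO for SC, and 478 (461 to 496) in WT and 411 (395 to 428) in KO for IP. It was the member with the smallest depot difference in WT, 1.66-fold lower in IP, and was 2.09-fold lower in KO. Its KO against WT log2 ratios had the opposite signs to those of Pi16, Dpp4 and Cd55, at 0.12 (0.01 to 0.22) in SC and -0.22 (-0.30 to -0.14) in IP. Of the last 500 bases of its longest transcript, from which 3' libraries are read, 53.6% of 25-base stretches also occurred in other genes, nearly all in its neighbour Ly6c2, so its level is uncertain where reads that match both were set aside. Ly6c2 itself had 1 to 3 stromal UMIs per library. For Cd55 this share was 2.31%, for Dact2 0.42% and for the other 6 members 0.

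Sema3c encodes a secreted class 3 semaphorin, a guidance cue for axons and vessels (ENSMUSG00000028780, chromosome 5, 17574281 to 17730268, plus strand). It measured 957 CPM (912 to 1004) in WT and 705 (665 to 746) in KO for SC, and 180 (169 to 191) in WT and 227 (215 to 240) in KO for IP. The depot difference was 5.32-fold in WT and 3.10-fold in KO. KO lay below WT in SC (log2 ratio -0.44, -0.55 to -0.33) and above WT in IP (0.34, 0.22 to 0.45). In WT IP a single cell held 153 of the 1100 Sema3c UMIs, and without the richest cell of each library the IP log2 ratio was 0.47.

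Wnt2 encodes a WNT ligand (ENSMUSG00000010797, chromosome 6, 17988940 to 18030585, minus strand), and Dact2 a protein that binds Dishevelled inside the cell and modulates WNT and TGF-beta signalling (ENSMUSG00000048826, chromosome 17, 14195052 to 14204304, minus strand). These were the 2 members with the fewest UMIs in IP. Wnt2 had 246 UMIs in WT and 160 in KO for SC, and 79 in WT and 33 in KO for IP, or 141 (124 to 160), 95.3 (81.1 to 111), 12.9 (10.2 to 16.1) and 5.56 (3.83 to 7.82) CPM. Dact2 had 227, 103, 94 and 38 UMIs, or 130 (114 to 148), 61.4 (50.1 to 74.4), 15.4 (12.4 to 18.8) and 6.41 (4.53 to 8.80) CPM. Both were lower in IP than in SC, Wnt2 by 10.9-fold in WT and 16.9-fold in KO and Dact2 by 8.44-fold and 9.50-fold. They were also the members that were lower in KO in both depots. The log2 ratio of Wnt2 was -0.56 (-0.86 to -0.27) in SC and -1.20 (-1.85 to -0.61) in IP, and for Dact2 it was -1.08 (-1.44 to -0.74) in SC and -1.25 (-1.85 to -0.70) in IP. The IP values depended on few cells: without the barcodes shared with KO SC they were -0.45 for Wnt2 and -0.88 for Dact2, and with every cell weighted equally -0.59 and -0.49.

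Anxa3 encodes annexin A3, a calcium-dependent phospholipid-binding protein (ENSMUSG00000029484, chromosome 5, 96793339 to 96845966, plus strand). Its level was 1066 CPM (1018 to 1115) in WT and 1079 (1030 to 1130) in KO for SC, and 197 (186 to 208) in WT and 262 (249 to 275) in KO for IP. The SC libraries could not be told apart (log2 ratio 0.02, -0.08 to 0.11), while KO was higher in IP (0.41, 0.30 to 0.52). IP was lower than SC by 5.42-fold in WT and 4.12-fold in KO.

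Smpd3 encodes neutral sphingomyelinase 2, which makes ceramide from sphingomyelin and takes part in the release of extracellular vesicles (ENSMUSG00000031906, chromosome 8, 106252548 to 106337988, minus strand). It stood at 344 CPM (317 to 373) in WT and 251 (228 to 277) in KO for SC, and 68.8 (62.4 to 75.7) in WT and 141 (132 to 151) in KO for IP. KO was lower than WT in SC (log2 ratio -0.45, -0.64 to -0.27) and higher in IP (1.04, 0.87 to 1.21), the highest of the 9 ratios in IP. The depot difference was 4.99-fold in WT and 1.78-fold in KO.

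**Figure D1:**
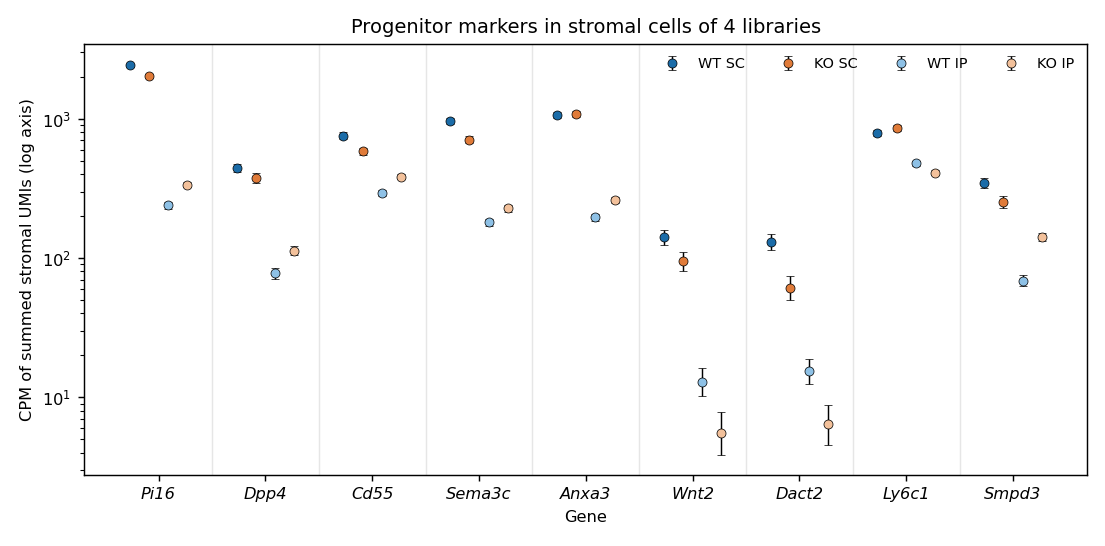
Level of each of the 9 members in the stromal cells of each library, in CPM of summed stromal UMIs on a log axis, with exact Poisson 95% intervals as bars. For every member both SC points lie above both IP points, from 2418 and 2044 CPM against 239 and 336 for Pi16 to 793 and 860 against 478 and 411 for Ly6c1.

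For all 9 members both SC levels lay above both IP levels beyond their intervals. When the 4 levels of each member were put in order, 25 of 27 neighbouring pairs had separate intervals, and the other 2 were WT SC and KO SC for Anxa3 and for Ly6c1. Such a count was not made for other genes. Intervals narrow as UMIs rise, so the count marks no trait of the 9 members. The order WT SC, KO SC, KO IP, WT IP held for Pi16, Dpp4, Cd55, Sema3c and Smpd3. Taken as a sum, the members made up 7047 CPM (WT) and 6055 CPM (KO) of the stromal UMIs in SC, against 1562 (WT) and 1884 (KO) in IP. In sums of this kind fewer cells of a type and less RNA per cell cannot be told apart. The same genes are given per cell further on, where the share of cells with a UMI still depends on both.

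All 9 members had at least 20 UMIs in each comparison and were compared as log2 ratios with all other genes that met this minimum. In WT, 8 of 9 were at least 2-fold lower in IP than in SC, where 6.24% of 11750 genes were, and 0 of 9 were at least 2-fold higher, where 10.2% of genes were. In KO the counts were 7 of 9 lower, beside 5.96% of 12079 genes, and 0 of 9 higher, beside 13.9%. The median log2 ratio of the members was -2.44 in WT and -1.73 in KO, beside 0.089 and 0.12 for all genes. Only Ly6c1 in WT, and Cd55 and Smpd3 in KO, were within 2-fold.

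The KO and WT libraries were closer. In SC, 0 of 9 members were at least 2-fold higher in KO (2.96% of 9727 genes) and 1, Dact2, was at least 2-fold lower (2.54%), with a median log2 ratio of -0.37 against 0.011 for all genes. The interval was below 0 for 7 members, above 0 for Ly6c1, and held 0 for Anxa3. Intervals that leave out 0 were not counted over all genes in either depot. With every cell weighted equally, Anxa3 and Ly6c1 turned to -0.33 and -0.09. In that weighting the shallow shared barcodes count as 69 of 192 KO SC cells, though they hold 2.58% of its stromal UMIs. Equal weights without these barcodes were not tried. In IP, 1 member, Smpd3, was at least 2-fold higher (7.19% of 12872 genes) and 2, Wnt2 and Dact2, were at least 2-fold lower (2.57%), with a median of 0.38 against 0.044 for all genes. There the interval was above 0 for Pi16, Dpp4, Cd55, Sema3c, Anxa3 and Smpd3 and below 0 for Wnt2, Dact2 and Ly6c1. Without the barcodes shared between KO SC and WT IP these signs were all kept, and the IP ratios were 0.33 for Pi16, 0.63 for Dpp4, 0.31 for Cd55, 0.20 for Sema3c, 0.57 for Anxa3, 1.16 for Smpd3 and -0.22 for Ly6c1. The depot ratios in WT were then -3.18 for Pi16, -4.19 for Wnt2 and -3.45 for Dact2, and those of the other 6 members moved by less. The comparisons of genotypes and of depots use the same 4 libraries.

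**Figure D2:**
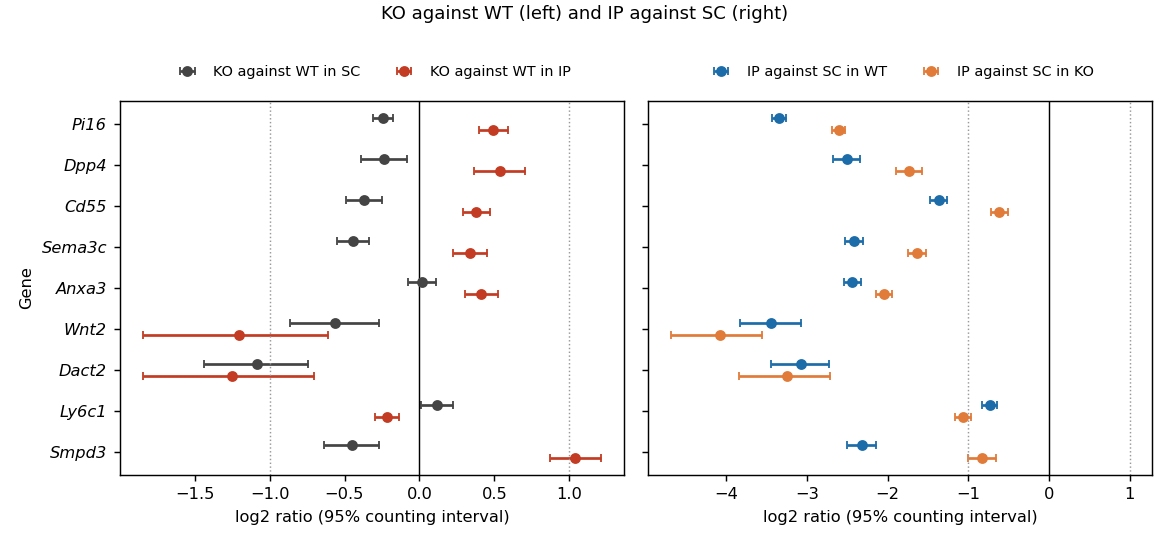
log2 ratios of the 9 members, KO against WT in each depot (left) and IP against SC in each genotype (right), with exact conditional binomial 95% intervals; dotted lines mark 2-fold. On the right all points lie below 0, down to -3.44 for Wnt2 in WT and -4.08 in KO, while on the left most points lie within 2-fold and Pi16, Dpp4, Cd55, Sema3c and Smpd3 are below 0 in SC and above 0 in IP.

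The mesothelial markers moved with the IP comparison. The 31 cells of KO IP with at least 3 mesothelial UMIs held 38 Pi16 UMIs, 24.6 CPM (17.4 to 33.8), against 445 (426 to 465) in the other 206 cells. Ly6c1 differed even more, with 4.53 CPM (1.82 to 9.34) against 554 (532 to 577), and Dact2 had 0 UMIs in these cells, which allows up to 1.94 CPM by a limit of 3 counts. In contrast, Dpp4 was higher in them, at 200 CPM (178 to 224) against 82.3 (74.0 to 91.2). Sema3c was at 233 against 225 CPM, Smpd3 at 168 against 132, Cd55 at 313 against 406 and Anxa3 at 216 against 278, so these 4 were carried by both kinds of cell. Without all cells that had at least 3 mesothelial UMIs, the KO against WT log2 ratio in IP was 0.87 for Pi16, 0.18 for Dpp4, -0.84 for Dact2 and 1.03 for Smpd3, and that of Ly6c1 turned from -0.22 to 0.19. The depot difference remained below 0 for all 9 members in both genotypes.

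Shares of cells with a UMI depend on depth, so each stromal cell was also thinned at random to 4000 UMIs, which left out 23 cells of WT and 86 of KO from SC and 33 of WT and 43 of KO from IP. None of the KO SC cells with a shared barcode reached that depth. Among the 72, 106, 241 and 194 cells left, Pi16 was seen in 72.2% (60.4 to 82.1) in WT and 70.8% (61.1 to 79.2) in KO for SC, and 29.9% (24.2 to 36.1) in WT and 46.9% (39.7 to 54.2) in KO for IP. SC libraries thus had a similar share and IP libraries a lower one, with KO above WT in IP. Dpp4 was in 61.1%, 61.3%, 17.4% and 24.7% of cells in the same order, and Sema3c in 75%, 72.6%, 21.2% and 30.9%. For both the intervals of KO IP and WT IP overlapped, and both SC shares were above both IP shares.

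Cd55 was seen in 68.1%, 64.2%, 34.9% and 51.5% of thinned cells in WT SC, KO SC, WT IP and KO IP, and Anxa3 in 76.4%, 76.4%, 36.9% and 46.9%. Smpd3 was in 51.4%, 42.5%, 15.8% and 32.0%. In each case WT IP had the lowest share. Ly6c1 was the most even, at 83.3%, 91.5%, 67.2% and 58.8%. Wnt2 reached 34.7% in WT SC and 26.4% in KO SC, and Dact2 34.7% (23.9 to 46.9) and 17.0% (10.4 to 25.5). In IP both were rare, at 2.90% and 3.09% for Wnt2 and 5.81% and 3.09% for Dact2 in WT and KO, with at most 14 cells each, too few to order the IP libraries.

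At their own depth, Pi16 was seen in 66.3% (WT) and 49.0% (KO) of SC stromal cells and in 52.9% (WT) and 65.4% (KO) of those from IP. The low value of KO SC was that of the 69 shallow barcodes, without which it was 73.2%. In the same way the KO SC share went from 44.8% to 65.9% for Dpp4, from 52.1% to 78.0% for Sema3c and from 69.8% to 92.7% for Ly6c1. In IP at own depth Sema3c was in 30.7% of WT and 46.4% of KO cells and Wnt2 in 10.2% and 10.1%.

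The same shares in lymphocytes give a measure of stray RNA for genes that these cells lack. In SC, B cells (285 in WT and 440 in KO, median depth 5952 and 4919 UMIs) and T cells (420 and 1020, 9302.5 and 7930.5 UMIs) had a Pi16 UMI in 0.238% to 0.490% of cells. Smpd3 was in 0.238% to 1.14%, and Dact2 in at most 1 cell of any of these groups. The stromal shares were far above these. Dpp4, Cd55 and Ly6c1 are also genes of lymphocytes: Dpp4 was in 31.9% of T cells of WT SC and 29.3% of KO SC, Cd55 in 75.4% and 69.8% of B cells, and Ly6c1 in 8.33% and 7.25% of T cells, so for them lymphocytes are no measure of background. In IP only 20 B cells in each library and 104 and 99 T cells were found, in which 0 and 1 T cells had a Pi16 UMI, where 0 of 104 allows a share of up to 2.88% by a limit of 3 counts.

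For 8 of 9 members, cells with a UMI held fewer copies in both IP libraries than in both SC libraries. Other genes were not counted in this way. The mean over thinned cells with a UMI was 15.3 Pi16 UMIs in WT and 12.3 in KO for SC, and 3.21 in WT and 3.16 in KO for IP. For Anxa3 it was 5.65, 5.58, 2.09 and 2.27 UMIs. At this depth lower Pi16 in IP went with both fewer cells with a UMI and fewer UMIs in these cells. A lower level per cell lowers both at a fixed depth, so the 2 cannot be told apart. At own depth Pi16 was seen in 66.3% of WT SC cells and 73.2% of KO SC cells without the shallow barcodes. In IP it was then in 52.9% of WT and 65.4% of KO cells. Sema3c gave 5.33, 3.94, 3.65 and 3.17 UMIs, Cd55 4.33, 3.78, 3.06 and 2.86, and Ly6c1 4.23, 4.36, 2.94 and 3.20, where the libraries lay closer together. Wnt2 in IP was at 1 and 1.17 UMIs per cell with a UMI, the level of a single UMI, from which no difference can be read. Dact2, the exception, had 1.72, 1.61, 1.71 and 1.5 UMIs, the IP values over 14 and 6 cells.

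Members were then counted per cell. In WT SC, 48 of 72 thinned cells (66.7%, 54.6 to 77.3) had at least 5 of them and 10 cells had all 9. KO SC was alike, with 70 of 106 (66.0%, 56.2 to 75.0) and 4 cells with all 9. At own depth 44.27% of all 192 KO SC cells had at least 5, and 69.11% of the 123 without a shared barcode. In IP, 38 of 241 cells (15.8%, 11.4 to 20.99) in WT and 43 of 194 (22.2%, 16.5 to 28.7) in KO had at least 5, and 0 cells had all 9, which allows shares of up to 1.24% and 1.55% by a limit of 3 counts. The median number of members per cell was 7 in WT and 6 in KO for SC, and 2 in WT and 3 in KO for IP. The minimum of 5 was chosen after seeing the data and is a range, not a cell type. In SC few cells lay at it, with 2 and 2 cells of WT SC and 6 and 7 of KO SC at exactly 4 and 5 members. In IP the count passed through this range without a gap, with 13 and 14 cells in WT and 20 and 18 in KO.

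If members were seen independently of one another, the product of their single shares would put at least 5 members in 78.7% (WT) and 71.7% (KO) of SC cells and in 3.77% (WT) and 11.9% (KO) of IP cells. The measured distribution was wider than this at both ends. In WT SC, cells with at most 1 member numbered 10 and cells with at least 8 numbered 22. In WT IP 11 of 241 cells (4.56%) had exactly 7 members, where the product gives 0.0434%. At least 2 members were seen in 86.1% (75.9 to 93.1) of WT and 83.0% (74.5 to 89.6) of KO cells from SC, and in 56.0% (49.5 to 62.4) of WT and 76.3% (69.7 to 82.1) of KO cells from IP, in each case under the product of 99.9%, 99.8%, 74.6% and 87.7%. The shares with at least 5 members were 66.9%, 67.2%, 14.2% and 18.9% as means of 20 thinning draws, an alternative added after seeing the data.

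**Figure D3:**
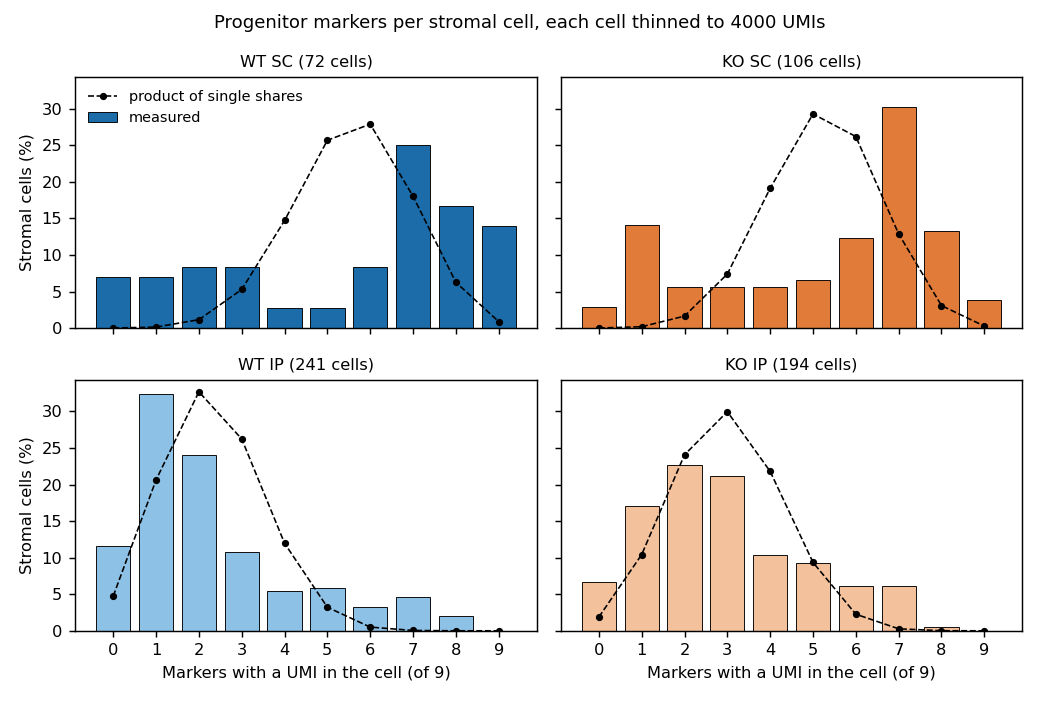
Share of thinned stromal cells (4000 UMIs each, vertical axis in %) by the number of the 9 members with a UMI, one panel per library, with the distribution given by the product of the single shares as a dashed line. SC cells gather at 7 members, with 25% of WT SC and 30.2% of KO SC cells there and a smaller group at 0 to 3, while IP cells gather at 1 to 3 with a tail up to 8.

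Of the 36 pairs of members, all 36 in WT SC, KO SC and WT IP and 30 in KO IP were seen together more often than apart from each other, where a pair counts when the share of cells with one gene was higher among cells with the other than among cells without it. The intervals of these shares were apart for 25, 23, 18 and 11 pairs. Each pair was read in a single direction, by presence of the member that comes first in the opening list. The direction can matter. In WT IP the intervals for Pi16 by presence of Wnt2 were apart, and those for Wnt2 by presence of Pi16 were not. Pairs of other genes were not counted in this way, so the counts mark no trait of the members. The median phi, the correlation of presence and absence over cells, was 0.43, 0.32, 0.21 and 0.13 over 72, 106, 241 and 194 cells. Cells with more members at a fixed number of UMIs share their library and their source tissue, so phi is a description only. Its range also depends on the single shares of the members, which differed between the libraries.

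Among cells of WT SC with Pi16, 82.7% (69.7 to 91.8) also had Dpp4, against 5% (0.13 to 24.9) of cells without Pi16. In KO SC these shares were 81.3% (70.7 to 89.4) and 12.9% (3.63 to 29.8), and in WT IP 40.3% (28.9 to 52.5) and 7.69% (4.16 to 12.8). The pair was thus strongly joined in 3 libraries. In KO IP the shares were 29.7% (20.5 to 40.2) and 20.4% (13.1 to 29.5), with overlapping intervals. Over 20 thinning draws the KO IP means were 27.4% and 24.4%. At own depth, which varies between cells, the KO IP shares were 51.6% (43.5 to 59.7) and 30.5% (20.8 to 41.6), with intervals apart. Without cells that had mesothelial markers the KO IP values were 29.2% (20.1 to 39.8) and 11.7% (5.49 to 21.03), so the Dpp4 seen outside Pi16 cells there lay in part in the cells with mesothelial markers, and over 20 draws the means were 26.7% and 13.3%.

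Sema3c and Dpp4 formed the pair with the highest phi in both IP libraries, at 0.51 in WT and 0.34 in KO. In WT SC it was Pi16 and Sema3c, at 0.72, and in KO SC Pi16 and Anxa3, also at 0.72. Dpp4 was found in 80.2% (69.9 to 88.3) of the 81 KO SC cells with Anxa3 and in 0 of the 25 without it, which allows up to 12% by the same limit. Ly6c1, Wnt2 and Dact2 had the 3 lowest values of mean phi with the other members in each library. Phi is held down where the shares of 2 members are unequal. Wnt2 and Dact2 were the rarest members and Ly6c1 the most widespread, so their low phi need not mean loose joining. In WT SC all 25 cells with Dact2 also had Pi16, Cd55, Sema3c and Anxa3. For Ly6c1 this mean over the other 8 members was 0.24 in WT and 0.21 in KO for SC, and 0.098 in WT and 0.12 in KO for IP, for Wnt2 it was 0.31, 0.24, 0.097 and 0.0061 and for Dact2 0.39, 0.22, 0.19 and 0.11, while Sema3c had 0.54, 0.45, 0.34 and 0.24. In KO IP, Ly6c1 was nonetheless joined to Pi16, seen in 75.8% (65.7 to 84.2) of cells with Pi16 and 43.7% (33.9 to 53.8) of those without. The 6 pairs of KO IP that were not seen together more often were 4 pairs of Wnt2, Anxa3 with Ly6c1, and Pi16 with Smpd3.

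**Figure D4:**
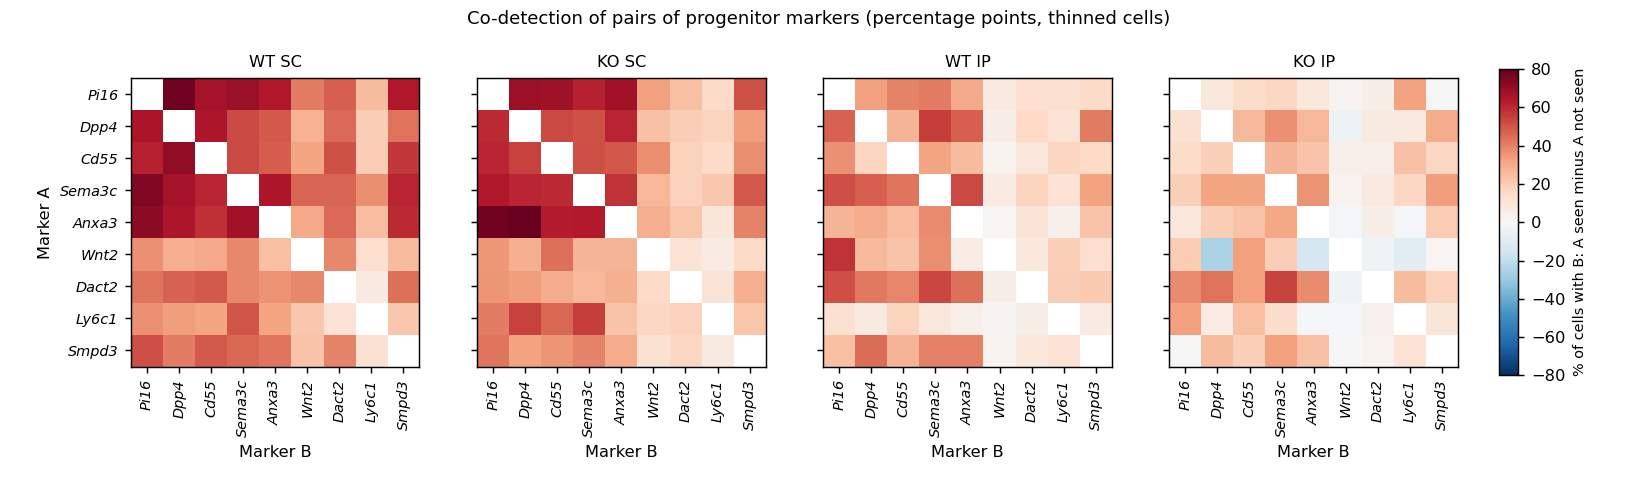
Co-detection of each pair of members in thinned stromal cells of the 4 libraries: colour gives the percentage of cells with member B among cells with member A minus that among cells without A, in percentage points. Most squares among Pi16, Dpp4, Cd55, Sema3c and Anxa3 are dark in both SC libraries, with 77.7 points for Dpp4 given Pi16 in WT SC, and they are paler in IP, with 32.6 points in WT and 9.28 in KO.

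Cells with at least 5 members, a choice made on the members themselves, differed less between depots than all stromal cells did. In these cells the members summed to 10917 CPM in WT and 9057 in KO for SC, and 5868 in WT and 4971 in KO for IP. Pi16 was still lower in IP, at 4031, 3139, 1059 and 674 CPM. Ly6c1 was lower in IP too, but by little, at 1089, 1186, 941 and 983 CPM. The levels of Cd55, at 1073, 893, 1303 and 1029 CPM, and of Sema3c, at 1432, 1029, 1072 and 831 CPM, overlapped between depots. Choosing cells by the members they carry can by itself bring the depots closer, so these levels are a description and no result about depots.

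Genes outside the 9 also followed the number of members seen. A list of 18 companion genes described for interstitial progenitors, among them Fn1, Fbn1 and Mfap5 for matrix fibres and Ly6a for the stem cell antigen SCA-1, had a median of 92.5, 86, 110 and 79 UMIs per 4000 in cells with at least 5 members in WT SC, KO SC, WT IP and KO IP. In cells with 0 members it had 19, 9, 22 and 12 UMIs. The step was present in all 4 libraries. A list of 14 preadipocyte genes, among them Lpl for lipid uptake and the basement membrane collagens Col4a1, Col4a2 and Col15a1, ran the other way, with medians of 1, 0, 5 and 9 UMIs at 5 or more members and 39, 51, 26.5 and 33 at 0 members. The 7 CD142 stromal genes, led by the matrix genes Mgp and Bgn, had medians of 0, 0, 5.5 and 8 UMIs at 5 or more members and 23, 8, 23.5 and 6 at 0 members, so that KO IP showed no such step. The classes with 0 members were small, with 5, 3, 28 and 13 cells. A list of 23 WNT pathway genes, without Wnt2 and Dact2, had medians between 4 and 8 UMIs in every class. They were somewhat higher at 5 or more members, at 7, 7, 7 and 8 UMIs, than at 0 members, at 5, 4, 4.5 and 6. This list shares Axin2 with the companion list.

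**Figure D5:**
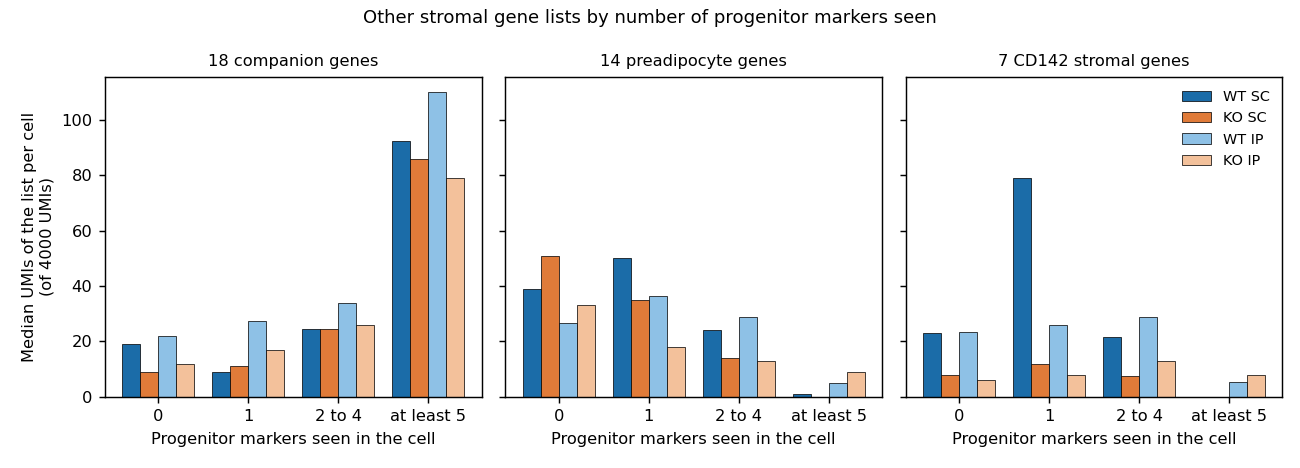
Median UMIs per thinned stromal cell (of 4000) of 3 other gene lists, by the number of the 9 members seen in the cell and by library. The 18 companion genes stand at 79 to 110 UMIs in cells with at least 5 members and at most 34 in all other classes, while the 14 preadipocyte genes are at 9 or fewer UMIs in cells with at least 5 members and higher in the others.

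The genes most like the summed members were sought among 4075 genes with a UMI in at least 10% of thinned stromal cells of each library, by the lowest of the 4 within-library Pearson r (log of 1 plus thinned UMIs, over 72, 106, 241 and 194 cells). The first 6 were Col14a1, a fibril-associated collagen, with r from 0.56 to 0.64, Ackr3, a scavenging chemokine receptor, from 0.52 to 0.71, Fbn1, fibrillin 1, from 0.51 to 0.70, Limch1 from 0.50 to 0.55, Cd248, endosialin, from 0.49 to 0.55, and Fndc1 from 0.46 to 0.67. Ackr3, Fbn1, Limch1 and Cd248 are also in the companion list. At the other end, named after their values were seen, were Apoe (-0.64 to -0.34), Col15a1 (-0.81 to -0.29), Cp (-0.52 to -0.28), Gpx3 (-0.35 to -0.27), Lpl (-0.68 to -0.27) and Sparcl1 (-0.84 to -0.26). Of these Col15a1, Lpl and Sparcl1 are in the preadipocyte list. The cells of a library share its depth and its mix of cells, so these values are descriptions.

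In summed stromal levels the companion genes had the depot difference of the members in part. In IP, 12 of 18 were at least 2-fold lower than in SC in WT and 12 of 18 in KO, with medians of -1.48 and -1.70. The most abundant ones were all within 2-fold, and Fn1 was nearly level, with a log2 ratio of 0.03 in WT and -0.06 in KO. Fbn1 was at -0.40 in WT and 0.10 in KO. Mfap5 (-0.46 and -0.72) and Ly6a (-0.34 and -0.71) were lower in IP in both genotypes. Of 13 preadipocyte genes compared, 8 in WT and 3 in KO were at least 2-fold higher in IP and 1 and 2 at least 2-fold lower, with medians of 1.11 and 0.23. Over all genes 10.2% and 13.9% were higher and 6.24% and 5.96% lower. Without cells with at least 3 mesothelial UMIs, an alternative added after seeing the data, the preadipocyte genes in KO had 4 higher and 1 lower, with a median of 0.60. Col15a1 was higher by a log2 ratio of 1.82 in WT and 1.46 in KO and Lpl by 1.17 and 0.66. Of 7 CD142 stromal genes, 2 in WT and 3 in KO were at least 2-fold higher in IP and 0 lower, Mgp by 2.599 and 2.13 on the log2 scale.

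Between genotypes the companion list had a median log2 ratio of -0.11 in SC and -0.19 in IP, with 0 of 17 genes at least 2-fold different in SC and 1 higher and 1 lower of 17 in IP. Over all genes 2.96% were at least 2-fold higher and 2.54% lower in KO SC, and 7.19% and 2.57% in KO IP. The counts of the lists in this paragraph are to be read beside these shares. All 13 preadipocyte genes compared were lower in KO IP than in WT IP, 1 of them at least 2-fold, with a median of -0.63, and in SC the median was -0.02. In the same IP comparison 7 of the 8 stromal markers were also lower, with a median of -0.43, and the 31 KO IP cells with at least 3 mesothelial UMIs held 26.0% of its stromal UMIs. Without such cells 12 of 13 preadipocyte genes were lower in KO IP, with a median of -0.36, and 5 of 8 stromal markers, with a median of -0.06. The companion median in IP then turned to 0.14, with 12 of 17 genes higher. Of the 7 CD142 stromal genes, 4 were higher and 3 lower in KO SC, 1 of these at least 2-fold, with a median of 0.0043. In IP 3 were higher and 4 lower, 1 at least 2-fold each way, with a median of -0.27. Mgp, with the most stromal UMIs of these over the 4 libraries, was lower in KO in both depots, with -1.03 (-1.16 to -0.90) in SC and -1.50 (-1.53 to -1.47) in IP. Of the WNT pathway genes, 1 of 21 was at least 2-fold higher in KO SC and 0 were lower, and 2 of 23 were higher and 2 lower in KO IP, with medians of 0.18 and 0.013. Sfrp2, a secreted WNT inhibitor, was the one in SC, at 196 CPM in WT and 497 in KO (log2 ratio 1.34, 1.16 to 1.53), and was 1.53 (1.40 to 1.66) in IP. Ctnnb1, the gene of beta-catenin, was at 0.18 (-0.07 to 0.43) in SC and -0.08 (-0.20 to 0.05) in IP.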

How the data were processed

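The deposited files hold unnormalized UMI counts by gene and barcode, one matrix a library. The authors prepared them from Chromium 3' v3 libraries, and the file headers name Cell Ranger 7.0.0. The submitters' processing notes also name STAR 2.6 and mm10. The use of intronic reads, which would raise long genes, is not given in the sources used here. Barcodes were dropped below 200 genes or above 25% mitochondrial UMIs, and doublets were called per library with Scrublet (scanpy 1.11.5, expected rate 5%) and removed, 23 barcodes or 0.556%. The caller marked few barcodes, and further doublets may remain.

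UMI counts were summed over stromal cells of each library and scaled to CPM of their total. Ratios were taken on the log2 scale after adding 0.5 UMI, for genes whose summed count over the pair of libraries reached 20, and called at 2-fold. For a gene with no UMI, the upper limit was set at 3 UMIs. Cells were thinned to 4000 UMIs without replacement with a fixed seed. B cells had at least 3 Cd79a UMIs and no Cd3e or Dcn, and T cells at least 1 Cd3e UMI and no Cd79a or Dcn. Pairs were compared where each member was seen in at least 5 cells. PCR reads had been collapsed to UMIs, and intervals cover counting error only.

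The 9 members and the gene lists were chosen with earlier results of these data known. Named genes were the members, the rule genes, paralogs, Tert, the 4 genes of each list with the most stromal UMIs and the 6 genes most like the members. Alternatives varied the Dcn minimum, the cell filters, the scaling, the depth and the weight of cells, and those on shared barcodes, repeated draws and the minimum of 5 members were added after seeing the data. The ratio step was tested on simulated counts, and the thinning step was checked on measured barcodes for the depth it returned. Positions come from GENCODE M21 on GRCm38. Scripts ran on pandas 2.3.3, numpy 2.4.6, matplotlib 3.10.9 and scipy 1.17.1 under Python 3.11.15.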

Additional observations from a re-analysis of the deposited data

Results flagged for a closer look

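For 6 of the 9 members the KO and WT levels lay in opposite orders in SC and IP, each beyond its counting interval. How many other genes meet this rule was not counted. The differences between depots were not tested, since each rests on 4 single libraries. The log2 ratio of KO to WT in IP minus that in SC was 0.734 for Pi16, 0.768 for Dpp4, 0.752 for Cd55 and 0.779 for Sema3c, all below WT in SC and above it in IP. For Smpd3, the sphingomyelinase gene, it was 1.49. Ly6c1 ran the other way, with -0.333, and this sign depended on cells with mesothelial markers, without which its ratio in IP was 0.19. The ratio of Dpp4 in IP also depended on them and fell from 0.53 to 0.18 without them. Dpp4 levels were then 82.3 CPM (74.0 to 91.2) in KO IP and 72.5 (65.9 to 79.6) in WT IP, with overlapping intervals. The mesothelial marker sum of 895 CPM in KO IP and 69.2 in WT IP stands beside all these values, and so do the barcodes that WT IP shares with KO SC. Without the shared barcodes the ratio in IP was still above 0 for Pi16, at 0.33, for Sema3c, at 0.20, and for Smpd3, at 1.16.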

How the results depend on the processing

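No paired analysis was possible because each group has 1 library. Of 440 log2 ratios under alternatives, 43 moved by more than their counting interval, none of them turning the sign of a 2-fold call. Members at least 2-fold higher in KO IP numbered 0 with median-of-ratios scaling, and members at least 2-fold lower 1 without mesothelial cells, 0 without shared barcodes and 0 with cells weighted equally. The shares with at least 2 members depended on depth by construction. At 2000 UMIs they were 74.42% in WT SC, and 36.25% (WT) and 54.93% (KO) in IP. At 8000 UMIs they were 92.86% in KO SC, and 75.66% (WT) and 85.64% (KO) in IP. At own depth they were 62.5% in KO SC, and 82.48% (WT) and 85.23% (KO) in IP. With at least 5 members they were 52.33% in WT SC, and 7.57% (WT) and 9.39% (KO) in IP at 2000 UMIs, and 31.49% in KO IP at 8000 UMIs. At own depth they were 44.27% in KO SC, and 33.21% (WT) and 48.95% (KO) in IP. Pairs with intervals apart numbered 14 in KO SC at 2000 UMIs. At own depth they numbered 36 in KO SC, and 30 (WT) and 18 (KO) in IP. At own depth without shared barcodes, added after seeing the data, the shares with at least 2 and at least 5 members were 87.8% and 69.11% in KO SC and 76.26% and 28.79% in WT IP, and pairs with intervals apart numbered 35 in KO SC and 26 in WT IP, while no stromal cell of KO IP had such a barcode and it stayed at 85.23%, 48.95% and 18. Over 20 draws the median numbers of such pairs were 27, 25, 21.5 and 9. With no replicates, differences between mice could not be measured, and Wnt2 and Dact2 in IP rest on 33 to 94 UMIs per library.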
